A study of Mus musculus with 5 samples.

Results

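Nitric oxide and cGMP signalling in ear skin was described here from 7 genes, Nos1, Nos3, Gucy1a1, Gucy1b1, Npr1, Prkg1 and Pde5a, out of 27179 genes in the count table. They were found by matching Entrez identifiers to mouse symbols, and all 7 passed the filter on low counts. The genes were chosen by a measured value, the lower count of Gucy1b1 in knockout libraries of this same comparison, and by being its partners in the pathway; Gucy1b1 lies on chromosome 3 near Cd1d1. Differences between knockout and control for these genes are therefore given as a description, with no test. The study compared bulk RNA of ear skin from 3 control and 2 Cd1d knockout (KO) samples, all on a B6 background. The sample titles give the controls as Cd1d +/-, while their genotype tag reads WT, and the KO samples are Cd1d -/- and tagged Cd1d KO. The sources used here give no age, sex or treatment and do not say that each sample came from a separate mouse, so any p-value measures only the spread between these 5 libraries.

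Nitric oxide is a gas made from arginine by nitric oxide synthases, among them the neuronal enzyme encoded by Nos1 and the endothelial enzyme encoded by Nos3. It binds the haem group of soluble guanylyl cyclase, a dimer of an alpha subunit (Gucy1a1) and a beta subunit (Gucy1b1), which then makes cGMP. Npr1 encodes a cyclase in the cell membrane that makes cGMP when natriuretic peptides bind it. Prkg1 encodes the cGMP-dependent kinase that relaxes vascular smooth muscle, and Pde5a the phosphodiesterase that degrades cGMP. In skin this pathway is known for its control of blood vessel tone.

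Total counts ranged from 32353957 to 79160005 per library, and 1 read was worth 0.0119 to 0.0303 CPM (read counts scaled to library size with TMM factors). Cd1d1, the deleted gene, had 6.61, 9.87 and 5.52 CPM in control replicates 1, 2 and 3, and 1.19 and 1.12 CPM in KO replicates 1 and 2, so the labels and this level pointed the same way in each library. Over all 17472 tested genes, 474 passed as higher in KO and 183 as lower by edgeR's quasi-likelihood test at an adjusted p under 0.05. With scaling to library size alone these were 268 and 974, and the median of all genes moved from -0.02 to -0.16 on the log2 scale. Without control replicate 1 the count was 0 by the same test (2253 genes at an unadjusted p under 0.05, and 1834 calls by DESeq2 on all libraries). Without KO replicate 1 it was 1 gene, without KO replicate 2 it was 128, and without control replicates 2 and 3 it was 1334 and 3277. KO replicate 1 stood apart in hair follicle keratins, whose 12 listed genes summed to 710 CPM there and to 12.8 to 25.5 CPM in the other libraries.

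Gucy1a1 and Gucy1b1 lie one behind the other on the minus strand of chromosome 3, with 17715 bases between them. On GRCm38, Gucy1b1 (Entrez 54195) spans 82032004 to 82074711 and Gucy1a1 (Entrez 60596) spans 82092427 to 82145946. Their promoter windows, from 250 bases before to 50 bases after an annotated start, are shown because these neighbouring genes supply both subunits of one enzyme and both had lower values in KO. The sequences are from RefSeq on GRCm38.p6, read along the gene's own strand, and capitals mark matches to CCAAT or GGGCGG on either strand. The Gucy1b1 window is chr3:82074662-82074961. The Gucy1a1 window is chr3:82145601-82145900, of the farther upstream of its 2 starts that have a window here. It lies wholly inside the gene span given above, so it is not at the outer end of that span.
Gucy1b1: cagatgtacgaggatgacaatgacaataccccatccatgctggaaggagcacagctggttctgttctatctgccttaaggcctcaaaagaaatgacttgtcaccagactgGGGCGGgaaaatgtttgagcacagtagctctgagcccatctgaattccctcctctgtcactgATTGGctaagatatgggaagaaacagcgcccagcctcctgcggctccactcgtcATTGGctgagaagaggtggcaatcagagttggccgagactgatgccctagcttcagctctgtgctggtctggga
Gucy1a1: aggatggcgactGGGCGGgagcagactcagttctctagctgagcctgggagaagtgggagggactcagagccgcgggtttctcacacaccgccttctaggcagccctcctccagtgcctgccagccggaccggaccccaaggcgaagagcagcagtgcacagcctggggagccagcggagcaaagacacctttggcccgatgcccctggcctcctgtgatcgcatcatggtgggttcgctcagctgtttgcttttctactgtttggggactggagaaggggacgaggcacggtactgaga
The Gucy1b1 window held a pair of CCAAT matches on the opposite strand, 78 and 24 bases before the start, and 1 GGGCGG match 140 bases before it. The Gucy1a1 window held no CCAAT match and 1 GGGCGG match, 238 bases before its start. Of 32851 promoter windows of the same length, 37.4% had at least 1 CCAAT match, 11.7% had 2 or more, and 35.7% had at least 1 GGGCGG match. The windows also differed in base composition, with a GC content of 52.3% for Gucy1b1 and 62.3% for Gucy1a1. CANNTG (the E-box, present in 72.3% of windows) was matched 3 times in Gucy1b1 and 1 time in Gucy1a1, while TATAAA (13.6% of windows) and the CArG box of smooth muscle genes (1.63%) had no match in either. No match overlapped a match of another motif in these windows. The other Gucy1a1 start had none of these motifs, and 6 of the 7 genes had a window in the RefSeq table. A match is a run of letters only, and no binding was measured.

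In control skin the genes differed by over an order of magnitude in level. Counts were divided by the longest annotated transcript to compare genes, in CPM per kilobase. Npr1 was highest at 4.44 ± 0.226 CPM per kilobase (SD, n = 3), followed by Nos3 at 3.51 ± 0.296, Gucy1b1 at 2.83 ± 0.0524 and Gucy1a1 at 2.36 ± 0.172. Between each of these neighbours the control libraries did not overlap. Pde5a (0.895 ± 0.208 CPM per kilobase, SD, n = 3) and Prkg1 (0.860 ± 0.173) were lower and did not differ beyond their spread. Nos1 was lowest at 0.109 ± 0.0322 CPM per kilobase (SD, n = 3), a level that only 4.23% of tested genes fell below, against 44.4% for Npr1. In the KO libraries, Npr1 (3.55 to 4.16) and Nos3 (3.11 to 3.62 CPM per kilobase) overlapped, as did Gucy1a1 (1.47 to 1.73) and Gucy1b1 (1.51 to 1.64).

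Both subunits of soluble guanylyl cyclase were lower in KO skin. The difference was larger for Gucy1b1, which was chosen for being lower, so nothing is read from its being the larger. Gucy1b1, whose product carries the haem that senses nitric oxide, had 8.93, 9.26 and 9.16 CPM in control replicates 1, 2 and 3 and 4.87 and 5.27 CPM in KO replicates 1 and 2 (753, 710, 302, 249 and 226 counts). The controls were nearly equal, the highest being 1.04 times the lowest, and both KO libraries lay far below them. The log2 fold change was -0.85 (SE 0.16), a level 1.8-fold lower in KO. Gucy1a1, the alpha subunit, had 11.1, 11.9 and 10.3 CPM in the controls and 8.12 and 6.93 CPM in KO. Its groups did not overlap either, and its log2 fold change was -0.56 (SE 0.15), a level 1.48-fold lower. In these whole-tissue libraries fewer cells of a type and less RNA per cell cannot be told apart.

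The ratio of the subunits is given as a description, since Gucy1b1, its denominator, was chosen for being lower in KO. Per transcript length, the ratio of Gucy1a1 to Gucy1b1 was 0.852, 0.882 and 0.770 in control replicates 1, 2 and 3, so the beta subunit was the more abundant transcript in every control library. It was 1.14 in KO replicate 1 and 0.899 in KO replicate 2. KO replicate 2 lay just above the highest control, and only in KO replicate 1 was the alpha subunit the more abundant. The ratio rests on the annotated lengths of 4710 bases for Gucy1a1 and 3223 bases for Gucy1b1.

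**Figure D1:**
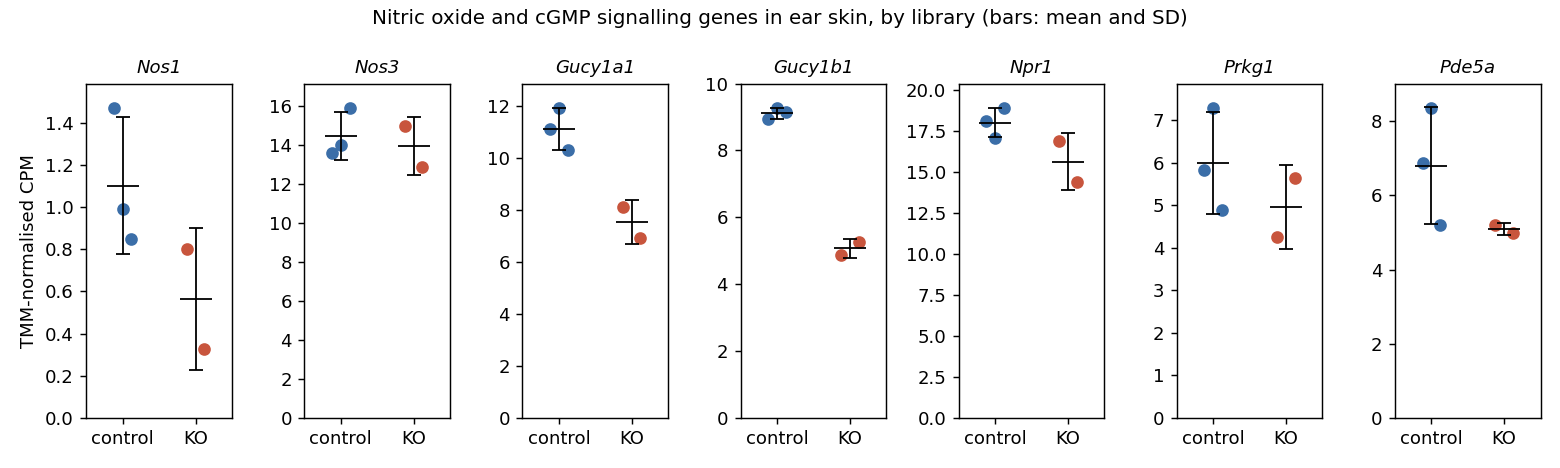
TMM-normalised CPM of the 7 genes in each library, with controls (n = 3) in blue and KO (n = 2) in red; black bars are the mean and SD, and every axis starts at 0. Gucy1b1, chosen for its lower value, shows the tightest controls (8.93 to 9.26 CPM) with both KO libraries at 4.87 and 5.27. The groups overlap for Nos3, Prkg1 and Pde5a.

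The genes that make nitric oxide did not share a pattern. Nos3, the endothelial synthase (Entrez 18127, chromosome 5, 24364816 to 24384474), had 13.6, 14.0 and 15.9 CPM in control replicates 1, 2 and 3 and 15.0 and 12.9 CPM in KO replicates 1 and 2. The groups overlapped, and the log2 fold change was -0.06 (SE 0.14). Nos1, the neuronal synthase, which skeletal muscle also expresses (Entrez 18125, chromosome 5, 117866839 to 117958840), was near the limit of these libraries with 124, 76 and 28 counts in the controls and 41 and 14 in KO. That gave 1.47, 0.991 and 0.849 CPM in the controls against 0.803 and 0.327 CPM. KO replicate 1 lay just below the lowest control, and their exact Poisson 95% intervals overlapped (0.576 to 1.09 against 0.564 to 1.23 CPM). KO replicate 2 stood lower, with an interval of 0.179 to 0.548 CPM that ended below the interval of each control. These intervals cover counting error only. The log2 fold change of Nos1 was -0.97 (SE 0.45), and it was -1.77 without KO replicate 1 and -0.48 without KO replicate 2.

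The membrane cyclase, the kinase and the phosphodiesterase differed little between the groups. Npr1 (Entrez 18160, chromosome 3, 90450591 to 90465928) had 18.1, 17.1 and 18.9 CPM in control replicates 1, 2 and 3 and 16.9 and 14.4 CPM in KO replicates 1 and 2. The groups did not overlap, by a gap smaller than the spread within either, and the log2 fold change was -0.20 (SE 0.14). Pde5a (Entrez 242202, chromosome 3, 122729158 to 122859374) had 6.88, 8.35 and 5.19 CPM in the controls and 5.21 and 4.99 CPM in KO. Control replicate 3 lay level with the KO libraries, and the log2 fold change was -0.42 (SE 0.21). Without control replicate 2 it was -0.25, and without control replicate 3 it was -0.58. Prkg1 (Entrez 19091, chromosome 19, 30564487 to 31765268) had 5.83, 7.28 and 4.88 CPM in the controls and 4.25 and 5.65 CPM in KO. Its groups overlapped, and its log2 fold change of -0.29 (SE 0.22) ranged from -0.51 without KO replicate 2 to -0.09 without KO replicate 1.

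As a set, the 7 genes had a median log2 fold change of -0.42, beside -0.02 for all tested genes. All 7 values were negative, as were 9148 of the 17472 tested genes, although Prkg1 had 0.04 with length and GC offsets and Nos3 had 0.02 with length offsets, 0.01 with the replicate number as a block, 0.01 without control replicate 3 and 0.05 without KO replicate 2. By edgeR's quasi-likelihood test 1 of the 7, Gucy1b1, passed an adjusted p of 0.05 as lower and 0 as higher, where 1.05% of all tested genes passed as lower, 2.71% as higher and 3.76% in either direction. Since Gucy1b1 chose the set, nothing is read from that count. With scaling to library size alone 2 of the 7 passed as lower, where 5.57% of tested genes did so, 1.53% passed as higher and 7.11% in either direction. DESeq2 also gave 2 as lower, where 5.08% of its tested genes passed as lower, 7.64% as higher and 12.7% in either direction. The edgeR count was 0 without control replicate 1 (2 at an unadjusted p under 0.05), without KO replicate 1 (3) and without KO replicate 2 (1), and it was 3 without control replicate 3. Without control replicate 3, 3277 of 17403 tested genes passed in all, 1435 of them as lower. The groups did not overlap for 4 of the 7, all lower in KO, where 19.96% of tested genes did so in that direction and 19.95% in the other. Gucy1b1 had a log2 fold change between -0.90 and -0.79 whichever library was left out, which is a description, since it was chosen for being lower. Without control replicate 1 its edgeR adjusted p was 0.141.

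Long transcripts had lower values in KO throughout these data, and most of the 7 genes have long transcripts. The median log2 fold change was 0.01 for tested genes of 2000 to 4000 bases, -0.18 for 4000 to 8000 bases and -0.32 for 8000 bases or more. Gucy1b1, at 3223 bases, was longer than 49.1% of tested genes, and the 4629 tested genes within 1.25 times its length had a median of -0.02. Pde5a and Prkg1, at 7603 and 6976 bases, were longer than 93.5% and 91.3% of tested genes, and genes of their length had medians of -0.27 and -0.25, close to their own values. Nos1 was longest at 10123 bases, with a median of -0.32 for genes of its length. Gucy1a1, at 4710 bases, had a median of -0.14 beside it.

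Offsets that remove each library's trend on transcript length and GC content changed the genes unequally. Gucy1b1 had a log2 fold change of -0.78 and Gucy1a1 one of -0.38 with both offsets. With them Pde5a had -0.14, Prkg1 0.04, Nos1 -0.72, Npr1 -0.22 and Nos3 -0.08, and the median of the 7 was -0.22. With offsets on length alone Gucy1b1 had -0.85, Gucy1a1 -0.44 and the median was -0.16. With both offsets 0.658% of all tested genes passed as lower, 2.15% as higher and 2.81% in either direction. Of the 7 only Gucy1b1 did, from which nothing is read, as before. With length offsets alone 0 of the 7 passed (2 at an unadjusted p under 0.05), and 18 of all genes did.

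**Figure D2:**
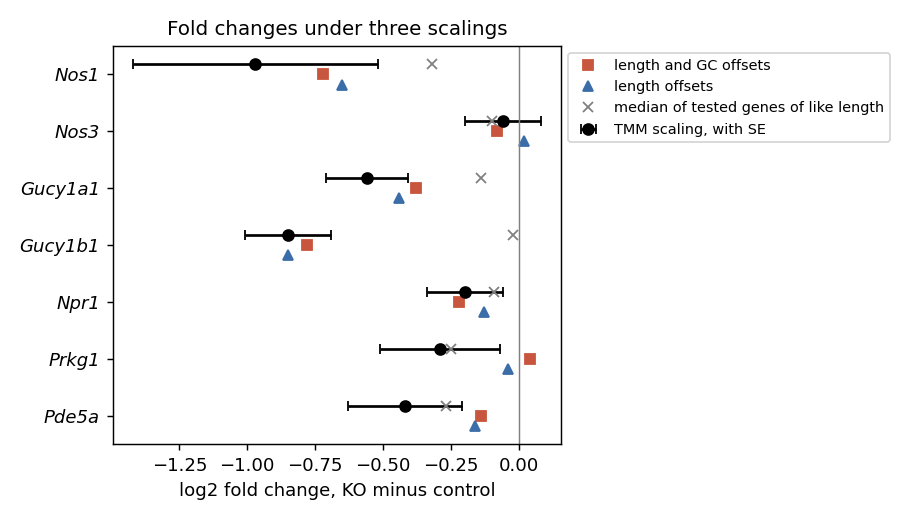
Log2 fold change (KO minus control) of each gene with TMM scaling (black, bars are SE), with length and GC offsets (red squares) and with length offsets (blue triangles); grey crosses are the median of tested genes within 1.25 times the gene's transcript length. Gucy1b1, chosen for its lower value, lies between -0.85 and -0.78, while Prkg1 and Pde5a move towards 0.

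**Figure D3:**
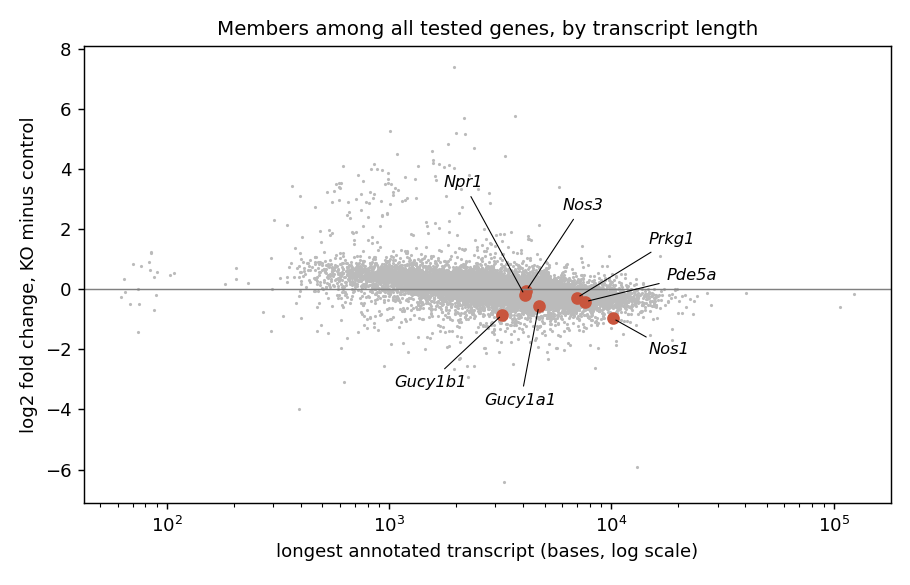
Log2 fold change (KO minus control) against the longest annotated transcript in bases (log scale) for all tested genes with a known length (grey) and the 7 genes (red). The cloud falls with length, and Prkg1 and Pde5a lie nearer its middle. Gucy1b1, chosen for its lower value, lies in its lower part at 3223 bases, and 2.75% of all tested genes had a lower value.

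Of the 7 genes, 4 lie on chromosome 3. From the start of Cd1d1, Gucy1b1 lay 4.96 Mb and Gucy1a1 4.9 Mb away on one side, Npr1 3.45 Mb away on the other, and Pde5a 35.7 Mb away. Of 30 tested genes whose start lies between Gucy1b1 and Cd1d1, both included, 3 passed as lower and 0 as higher, with a median log2 fold change of -0.22. Since the stretch is bounded by the deleted gene and by the gene that chose the set, only 1 of the 3 was free to differ. The 3 were Cd1d1 itself, Gucy1b1 and Rps3a1, a ribosomal protein gene whose near-identical copies could share reads (controls 1112 ± 90.7 CPM, SD, n = 3; KO 552 ± 14.5 CPM, SD, n = 2; log2 fold change -1.01, SE 0.12, edgeR quasi-likelihood adjusted p = 0.0152).

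None of the closest neighbours of Gucy1b1 passed. Within 1 Mb of its start, 8 genes were tested including the cyclase pair. Ctso, a cysteine protease gene and the nearest on one side, stood at -0.19 (SE 0.14) on the log2 scale, and Map9, a microtubule-associated protein gene beyond Gucy1a1, had -0.26 (SE 0.18). Lrat, the enzyme that esterifies retinol, had -0.90 (SE 0.29, edgeR adjusted p = 0.106), and Pdgfc, a growth factor gene, had -0.07 (SE 0.15). All 8 values were negative, Gucy1b1 included, as were 9148 of the 17472 tested genes, and Lrat, Ctso, Map9 and Pdgfc were picked here for their place near it.

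Over 10 Mb on either side of Cd1d1, 27 of 305 tested genes passed as higher and 8 as lower, 8.85% and 2.62%, beside 2.71% and 1.05% of all tested genes. This stretch also holds the epidermal differentiation complex, a cluster of genes of the cornified layer. On the far side, between Cd1d1 and Npr1, both included, 5 of 110 tested genes passed as higher and 5 as lower, Cd1d1 among them. There the genes with the smallest p that passed as higher were Dpm3 (0.83, SE 0.13), a subunit of the mannose donor synthase, and Tsacc (1.05, SE 0.17). The predicted gene Gm15417 had 0.79 (SE 0.14). Il6ra, the interleukin-6 receptor (-0.69, SE 0.13), and Ash1l, a histone methyltransferase (-0.66, SE 0.14), passed as lower too. The transcripts of Dpm3 and Tsacc are short, at 827 and 600 bases, and that of Ash1l is long, at 11644 bases. With length and GC offsets Dpm3 had 0.35, Tsacc 0.55 and Ash1l -0.30, and none of these passed. Il6ra (-0.42) still passed, as did Gm15417 (0.79), which has no known length to adjust. With offsets for length and GC content, 6 of the 305 genes within 10 Mb passed as higher and 6 as lower, and with library size scaling 16 and 22. From Cd1d1 to Npr1 the same offsets left 4 higher and 4 lower. Without control replicate 1, 0 genes within 10 Mb passed (65 at an unadjusted p under 0.05 by edgeR's quasi-likelihood test). Without control replicate 3, 59 of them passed as higher and 25 as lower. Of all 17403 genes tested without control replicate 3, 1842 passed as higher and 1435 as lower. The loss of Cd1d1 and any stretch of chromosome carried along with the deleted allele cannot be told apart in this design.

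**Figure D4:**
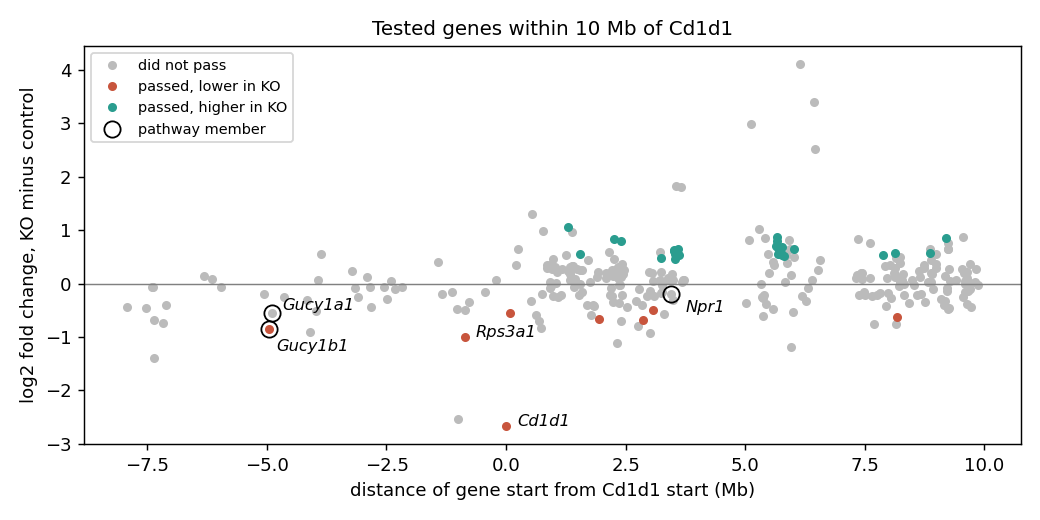
Log2 fold change (KO minus control) of the 305 tested genes within 10 Mb of Cd1d1 against the distance of each gene's start from that of Cd1d1 (Mb); red passed as lower, green as higher, grey did not pass, and rings mark the cyclase pair and Npr1. Gucy1b1, Rps3a1 and Cd1d1 are the red points from Gucy1b1 to Cd1d1, and the side of Npr1 holds both higher and lower calls, with 5 of each from Cd1d1 to Npr1 when Cd1d1 is counted.

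In the wider pathway, 70 further genes were listed by role, 60 of them could be tested, and 1 rose and 0 fell by edgeR's quasi-likelihood test (17 at an unadjusted p under 0.05), with a median log2 fold change of -0.01. Of all tested genes edgeR passed 2.71% as higher and 1.05% as lower. DESeq2 gave 1 higher and 4 lower, where 7.64% of all its tested genes passed as higher and 5.08% as lower. Leaving out control replicate 3 gave 6 and 8, control replicate 2 gave 1 and 1, and control replicate 1 gave 0 and 0. Without control replicate 2, 822 of all 17097 tested genes passed as higher and 512 as lower. Over all 17403 genes tested without control replicate 3, 1842 passed as higher and 1435 as lower. The gene that rose by edgeR with all libraries was Ddah2, a relative of the enzyme that clears methylarginine inhibitors of nitric oxide synthase. It had 48.5, 53.8 and 59.7 CPM in control replicates 1, 2 and 3 and 76.0 and 84.6 CPM in KO replicates 1 and 2. The groups did not overlap, and the log2 fold change was 0.57 (SE 0.13, edgeR adjusted p = 0.0388). Its transcript is short, at 1342 bases, and the fit with both offsets gave it 0.19 (adjusted p = 0.323). Over 16 alternatives its edgeR, DESeq2 or limma adjusted p ranged from 0.00174 to 0.442. It did not pass without control replicate 1 (edgeR adjusted p = 0.225), KO replicate 1 (0.343) or KO replicate 2 (0.311).

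Genes that supply or restrain nitric oxide synthase made up the first group. Of its 21 genes other than Nos1 and Nos3, all tested, 1 rose, 0 fell and 20 did not pass, with a median log2 fold change of 0.16. Cyb5r3, a reductase that keeps the haem of the cyclase in its active state, was highest per length at 126 CPM per kilobase in controls. Its log2 fold change was 0.16 (SE 0.13). Cav1, the caveolar protein that holds the endothelial synthase inactive, had 289, 367 and 244 CPM in control replicates 1, 2 and 3 and 217 in each KO library. Its groups did not overlap, with a log2 fold change of -0.47 (SE 0.16, edgeR adjusted p = 0.13) whose adjusted p ranged from 0.00535 to 0.511 over 16 alternatives. It passed in 5 of them, among them without control replicate 3 (-0.59), with both offsets (-0.41) and with DESeq2 (-0.46).

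The remaining cyclases and the natriuretic peptide system had no call. Gucy1a2, the alternative alpha subunit, had 2.06, 2.74 and 1.49 CPM in control replicates 1, 2 and 3 and 1.64 and 1.21 CPM in KO replicates 1 and 2, a log2 fold change of -0.56 (SE 0.32) with overlapping groups. Of 10 tested genes of natriuretic peptides and receptor cyclases besides Npr1, 0 passed in either direction, and their median was -0.01. Npr2, the receptor of C-type natriuretic peptide, had 49.6, 47.2 and 58.9 CPM in control replicates 1, 2 and 3 and 37.8 and 42.8 CPM in KO replicates 1 and 2. Its log2 fold change was -0.36 (SE 0.14, edgeR adjusted p = 0.152), and its adjusted p ranged from 0.0362 with both offsets (-0.38) to 0.631 without KO replicate 1 (-0.28). Corin, the protease that activates atrial natriuretic peptide and is also made in hair follicles, had 17.5, 17.2 and 13.7 CPM in the controls and 11.5 and 9.87 CPM in KO. Its log2 fold change was -0.60 (SE 0.16, edgeR adjusted p = 0.064), with an adjusted p of 0.00461 to 0.383 over 16 alternatives, of which 5 passed. The lowest was without control replicate 3 (-0.70) and the highest without KO replicate 2 (-0.50).

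Downstream of cGMP, the effectors, phosphodiesterases and substrates also had no call. Of 4 tested effectors besides Prkg1, of 12 tested phosphodiesterases and exporters besides Pde5a, and of 12 substrates and contractile targets, 0 passed in either direction, with medians of -0.08, -0.07 and -0.09. Prkg2, the membrane-bound kinase, had 3.34 to 4.47 CPM in controls and 3.94 to 4.66 CPM in KO, a log2 fold change of 0.18 (SE 0.21), and Cngb1, a channel subunit, 0.34 (SE 0.37). Among exporters, Abcc4 had 31.6, 29.3 and 32.6 CPM in control replicates 1, 2 and 3 against 23.2 and 24.6 CPM, a log2 fold change of -0.38 (SE 0.12, edgeR adjusted p = 0.0998). Its adjusted p ranged from 0.0346 with scaling to library size alone to 0.545 with length offsets. Abcc5 had -0.12 (SE 0.13) and Pde6d 0.13 (SE 0.12). Of the kinase substrates highest per length, Rhoa, a regulator of contraction, had 0.01 (SE 0.14), Vasp, an actin-binding protein, 0.14 (SE 0.13) and Hspb6, a small heat shock protein of smooth muscle, 0.37 (SE 0.13).

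**Figure D5:**
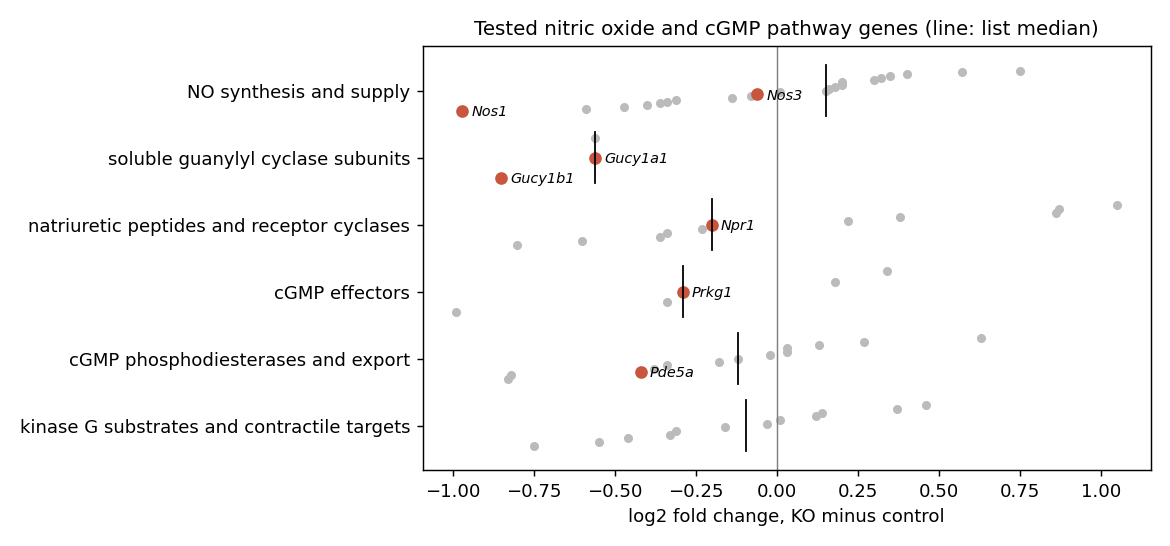
Log2 fold change (KO minus control) of the 67 tested pathway genes in their 6 lists, with the 7 described genes in red and the others in grey; black lines are list medians, which include the red points. The cyclase subunits all lie below 0, while the other lists spread to both sides.

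Within the marker lists of vessel cells some genes had higher and others lower values in KO. Smooth muscle and pericyte genes, which carry the cyclase and the kinase in vessel walls, summed to 755 to 936 CPM in controls and 888 to 943 CPM in KO. Of these 14 genes 1 rose, Tagln (0.52, SE 0.12), and 1 fell, Abcc9, a channel subunit of pericytes (-0.65, SE 0.14), and the median log2 fold change was 0.04. Neither passed with length and GC offsets. The groups did not overlap for 5 of the 14 as higher, Acta2 (0.16), Tagln, Des, Lmod1 (0.22) and Mustn1 (0.41), named after their values were seen. For 2 they did not overlap as lower, Abcc9 and Rgs5, a pericyte marker (-0.63, SE 0.18, edgeR adjusted p = 0.0822). Of all tested genes 19.95% did so as higher and 19.96% as lower. Their most abundant genes were Des (0.40, SE 0.14) and Notch3 (-0.15, SE 0.17). Des had 221, 208 and 276 CPM in control replicates 1, 2 and 3 and 291 and 327 CPM in KO replicates 1 and 2. The sum weighs Des most, so it is not read as the amount of vessel cells. Skeletal muscle genes, described below, had a median of 0.21, and which cells gave the Des and Mustn1 reads was not tested. Endothelial genes summed to 528 to 568 CPM in controls and 546 to 585 CPM in KO, with 1 of 14 higher, Cldn5 (0.53, SE 0.12), 0 lower and a median of -0.14. Cldn5 and Egfl7 (0.33, SE 0.12) were the most abundant over all 5 libraries, while in controls Pecam1, an adhesion molecule of endothelium, was highest at 78.0 CPM (-0.33, SE 0.12). The groups did not overlap for 6 of the 14 as lower and for 2 as higher, beside the same 19.96% and 19.95% of all tested genes. The 6 were Cdh5 (-0.48), Flt1 (-0.48), Tek (-0.41), Erg (-0.34), Pecam1 and Kdr (-0.16), named after their values were seen. With both offsets Cdh5, the cadherin of endothelial junctions, passed as lower (-0.44, edgeR adjusted p = 0.0333) and Emcn as higher (0.45, adjusted p = 0.0494). All 14 genes of each list had counts in every library.

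The summed levels of skeletal muscle, platelet and adipocyte genes were higher in both KO libraries than in any control. Skeletal muscle genes, a source of Nos1, summed to 5413 to 5660 CPM in controls and to 6584 and 7569 CPM in KO, with 3 of 15 higher (Mylpf, Tnni2 and Tnnc2) and 1 lower (Ttn), and 0 in either direction with length and GC offsets. Its most abundant genes were Acta1 (0.43, SE 0.13) and Myh1 (-0.09, SE 0.15). The groups did not overlap in that sum, and the higher one was KO. The list median was 0.21, and it was 0.08 with length and GC offsets. The longest genes of the list, Ttn and Neb, had -0.59 and -0.34. Nothing about Nos1, whose transcript is long, is read from the sum. Platelet genes, from cells that hold the cyclase and Pde5a, summed to 80.2 to 93.9 CPM in controls, and 121 and 113 CPM in KO. Of 4 tested genes 0 passed in either direction, and Pf4 (0.38, SE 0.12) and Itga2b (0.59, SE 0.15) were the most abundant. Gp6 had 0 counts in every library and Gp9 in at least 1. Ppbp had 0.334 CPM in controls and 0.336 CPM in KO. The sum rests on Pf4, Itga2b and Gp1bb, so it is not read as the amount of platelets. Adipocyte genes summed to 611 to 991 CPM and to 1185 and 1029 CPM, with 1 of 6 higher (Cfd, 0.71, SE 0.15) and Fabp4 at 0.53 (SE 0.21). With length and GC offsets the median went from 0.42 to 0.06 for platelet genes and from 0.38 to 0.17 for adipocyte genes. With them Cfd had 0.18 (edgeR adjusted p = 0.788). Itga2b (0.52, edgeR adjusted p = 0.0189) and Fabp4 (0.71, edgeR adjusted p = 0.0318) passed as higher there. Keratinocyte, fibroblast and Schwann cell lists had 0 genes past the threshold, of 10, 8 and 6 tested, and medians of 0.02, -0.02 and -0.13, and 0 of 12 hair follicle keratins passed. The most abundant genes were Krt10 (0.06, SE 0.13) and Krt5 (0.15, SE 0.13) for keratinocytes, and Col3a1 (-0.04, SE 0.13) and Col1a1 (-0.18, SE 0.20) for fibroblasts. The part of these cell types in the values of the 7 genes was not tested.

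Genes with the most similar profile were sought over the 5 libraries, by the Euclidean distance between log2 CPM values centred on each gene's mean, among 13841 genes (13842 for Nos1). For Gucy1b1 the 5 nearest were Dop1a (distance 0.0943), Lama3 (0.103), Slc25a53 (0.129), Plcb4 (0.129) and Tbck (0.133), on chromosomes 9, 18, X, 2 and 3. Gucy1a1 ranked only 273 for Gucy1b1, at a distance of 0.416. For Gucy1a1 the nearest were Tnik (0.0594), Sema5a (0.0765) and Tll1 (0.0791). Nos3 and Npr1 lay at a distance of 0.199, the shortest between any of the 7 genes. The nearest genes were Fcgbp and Hacl1 for Nos3, Cyp2j8, Mcm2 and Chd7 for Npr1, Nedd1, Tmx3 and Zfp948 for Pde5a, Aspm, Calr3 and Ckap2 for Prkg1, and Eml6, Cemip and Zfp418 for Nos1. The distances share the same 5 libraries, and a short distance says only that values moved alike.

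Reads of genes on the opposite strand could enter some of these values, because no source used here says whether the authors counted by strand. Gucy1b1 overlaps no other annotated gene and Gucy1a1 only the microRNA gene Mir7010. Overlaps were found by whole gene spans, and whether exons overlap was not tested. Cstf2t lies inside Prkg1 on the other strand, only from 31082841 to 31086592. It was counted at 35.1 CPM in controls and 37.8 CPM in KO, above Prkg1 itself at 6.0 and 4.95 CPM. Atg9b overlaps Nos3 on the other strand, only from 24384181 to 24384474, and had 56.3 and 48.7 CPM, against 14.5 and 13.9 CPM for Nos3. Pde5a, Nos1 and Npr1 also overlap noncoding genes on the opposite strand. The one in the count table, 4930447N08Rik at Pde5a, had 0 counts in every library.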

How the data were processed

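RNA of 5 ear skin samples was sequenced, and the authors deposited 1 table of raw read counts by Entrez gene. Per the submitters' processing notes, the tools included FastQC, HISAT2 2.0.4 and DESeq2 1.16.1 with GRCm38 (mm10). How reads were assigned to genes, with or without strand and with what rule for shared reads, is not stated in any source used here. Groups and replicate numbers come from the sample titles.

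From these counts, filterByExpr left 17472 genes, TMM factors were 0.936 to 1.07, and KO was tested against control over all genes with edgeR 4.0.16 in R 4.3.3 (robust quasi-likelihood fit, Benjamini-Hochberg adjusted p under 0.05). CPM are TMM-scaled. Log2 CPM used a prior count of 1. Symbols, positions and promoter windows came from RefSeq on GRCm38.p6 (25275 of 27179 identifiers had a symbol) and transcript lengths and GC content from GENCODE M21 (90.5% of tested genes). All 77 listed pathway genes were matched, 1 by an older symbol (Irag1, in the table as Mrvi1). Offsets on length and GC were smooth trends per library (mgcv 1.9.3). Libraries of a group differed by a chi-square of 23.2 to 79.1 per degree of freedom, so none was a duplicate. The fit was tested on simulated data.

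The 7 genes and the lists were chosen with earlier results of these data known. Named were the 7 genes and Cd1d1, pathway genes past the threshold or among the 3 highest per length of each list in controls, up to 8 genes past the threshold between Gucy1b1 and Npr1, the nearest profiles (at a mean of at least 1 CPM, passing over predicted and clone-named genes), and of each marker list the genes past the threshold and the most abundant. Some genes that this rule names are not reported here. Marker lists of 9 cell types were compared by counts and sums. Alternatives were other scalings, filters, tools (DESeq2 1.42.0, limma voom 3.58.1), offsets, windows, the replicate number as a block, and each replicate left out in turn, where a single remaining KO library takes its spread from the controls.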

Additional observations from a re-analysis of the deposited data

How the results depend on the processing

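With library size alone as scaling, 1242 genes passed in all, 2 of the 7 described genes, and 6 of the wider pathway. Without the filter on low counts 1036 and 3 (wider pathway) passed. DESeq2 gave 1834 genes in all, 2 of the 7, 5 of the wider pathway and 59 within 10 Mb of Cd1d1. Length offsets alone gave 18, 0, 0 and 2 in the same order. With length and GC offsets 3 of the wider pathway and 12 of the 10 Mb stretch passed. A stretch of 5 Mb on either side held 18 called genes, against 35 for 10 Mb. With the replicate number as a block, 2037 genes passed in all, 2 of the 7, 6 of the wider pathway and 62 of the stretch. Same-numbered libraries deviated together with correlations of only 0.03 and 0.09, so they share a number and no more is read from the block. Leaving out 1 replicate gave 0 to 3277 genes in all, 0 to 3 of the 7, 0 to 14 of the wider pathway and 0 to 84 of the stretch. The cause of these changes was not tested, and a fit with a replicate left out also had fewer samples. Of 111 alternative fold changes of the 7 genes, 99 moved by less than the spread between replicates and 12 by more. The 16 of Gucy1b1 were all negative, but it was chosen for being lower in these libraries, so nothing is read from that. Nos1 and Cngb1 had no value with the filter at a mean of 1 CPM. Depth limits Nos1 most, with 14 to 124 counts per library.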

Other observations

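Several genes of the pathway were at or near 0 in ear skin. Cnga1, a cGMP-gated channel of photoreceptors, had 0 counts in all 5 libraries, so that 3 counts set an upper limit between 0.0356 and 0.091 CPM, for counting error only. Gucy1b2, the second beta subunit, averaged 0.0645 CPM in controls and 0.0331 CPM in KO and was not tested. Gucy1b1 was therefore the one beta subunit measured above 1 CPM. Nos2, the inducible synthase of inflamed tissue, had 1.11 CPM in controls and 0.819 CPM in KO, with overlapping groups and a log2 fold change of -0.40 (SE 0.44).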
